A study of Homo sapiens with 12 samples.

Results

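The genes of RNA polymerase I and of abundant nucleolar proteins were followed in TC32 and TC71 cells, established lines of Ewing sarcoma, after mithramycin. The members were POLR1A, POLR1B, POLR1C, POLR1E, UBTF, RRN3, TAF1D, NCL, NPM1 and FBL. Every probe set that the platform annotation gives to 1 of these symbols alone was taken, whatever its values, which gave 25 probe sets of the 10 genes among 54675 probe sets and 19775 named genes. They were set beside the 6 array control sets for the 18S and 28S ribosomal RNAs. These were included because movement with the drug among their 3' and middle sets was already known in these data. The 3' and middle sets are therefore described without a test. Not each of them moved: the 18S middle arrays with and without the drug overlapped in each line.

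The 4 groups were TC32 with solvent control, TC32 with 100 nM mithramycin, TC71 with solvent control and TC71 with 100 nM mithramycin, all exposed for 6 h. The control groups are also called untreated below, meaning without mithramycin. Their sample titles carry different letters, S in TC32 and C in TC71. With 3 biological replicates per group, on separate arrays, the precision is set by their number. Mithramycin is an antitumour antibiotic that binds the minor groove of G- and C-rich DNA. Each line is a single culture model of the tumour, and RNA of a whole culture does not tell a change in every cell from a larger change in some of them. Values are log2 signals of the RMA method, which corrects background, makes the arrays share 1 distribution and summarizes the probes of a set, so changes are relative to the rest of the array. Levels of different probe sets are not compared with each other. Log2 fold changes are mithramycin minus control, given with the standard error of the limma model and n = 3 arrays per group. A probe set was called at a limma adjusted p under 0.05 (Benjamini-Hochberg over 54619 probe sets).

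Arrays of a group correlated at 0.9948 or higher over all probe sets, and the array medians lay between 4.38 and 4.47. The 6 measured Ewing sarcoma markers, CD99, NKX2-2, PRKCB, STEAP1, CCND1 and FLI1, lay between 7.08 and 12.2 on all arrays, and the 12 measured markers of blood, epithelial and endothelial cells between 2.04 and 5.29. The difference of the beta-actin 3' and 5' control sets widens as less of the 5' part of the RNA reaches the labelled sample. It was 0.71 ± 0.04 in TC32 controls and 0.60 ± 0.08 with the drug (SD, n = 3). In TC71 it was 1.45 ± 0.48 in controls, where replicate 1 stood apart at 2.0, and 0.88 ± 0.10 with the drug. Over both lines this drug effect was -0.34 (exact two-sided permutation p = 0.01, labels permuted within lines), -0.21 without TC71 control replicate 1, and p rose to 0.055 to 0.065 without any 1 of the 3 treated TC71 arrays. The same difference for GAPDH was 0.07 to 0.12 in all groups, with a drug effect of 0.005 (exact permutation p = 0.675).

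RNA polymerase I transcribes the repeated ribosomal RNA genes in the nucleolus into a long precursor that is cut into the mature 18S and 28S species. UBTF binds and bends the ribosomal DNA, TAF1D belongs to the selectivity factor SL1 at its promoter, and RRN3 links the polymerase to SL1. NCL, NPM1 and FBL then act in folding, modification and assembly of the transcript into ribosomal particles. The array measured the messenger RNAs of these proteins and, through its control sets, ribosomal RNA carried into the labelled sample. Polymerase activity was not measured.

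The polymerase subunits did not respond as a unit. POLR1A, the largest catalytic subunit, fell at all 3 of its probe sets in each line. At probe set 222704_at it lay at 6.83, 7.05 and 6.91 in TC32 controls and at 6.19, 5.98 and 6.06 with mithramycin. In TC71 the same set lay at 6.82, 6.96 and 6.84 in controls and at 6.20, 6.26 and 6.31 with the drug. Every treated array was below every control array of its line. POLR1A fell by 0.85 ± 0.08 in TC32 (adjusted p = 2.63e-06) and by 0.62 ± 0.08 in TC71 (adjusted p = 6.50e-05), to 0.555 and 0.652 of the control signal. At its brightest set, 228515_at, TC32 controls stood at 7.46, 7.46 and 7.37 against 6.90, 7.05 and 6.76 with the drug, a fall by 0.52 ± 0.08. TC71 controls stood there at 8.23, 8.03 and 8.08 against 7.58, 7.49 and 7.64, a fall by 0.54 ± 0.08. The third set, 235280_at, fell by 0.67 ± 0.08 in TC32 and 0.36 ± 0.08 in TC71, the latter to -0.27 (adjusted p = 0.0806) with arrays centred on hybridization controls, bacterial transcripts added to every sample before hybridization.

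**Figure D1:**
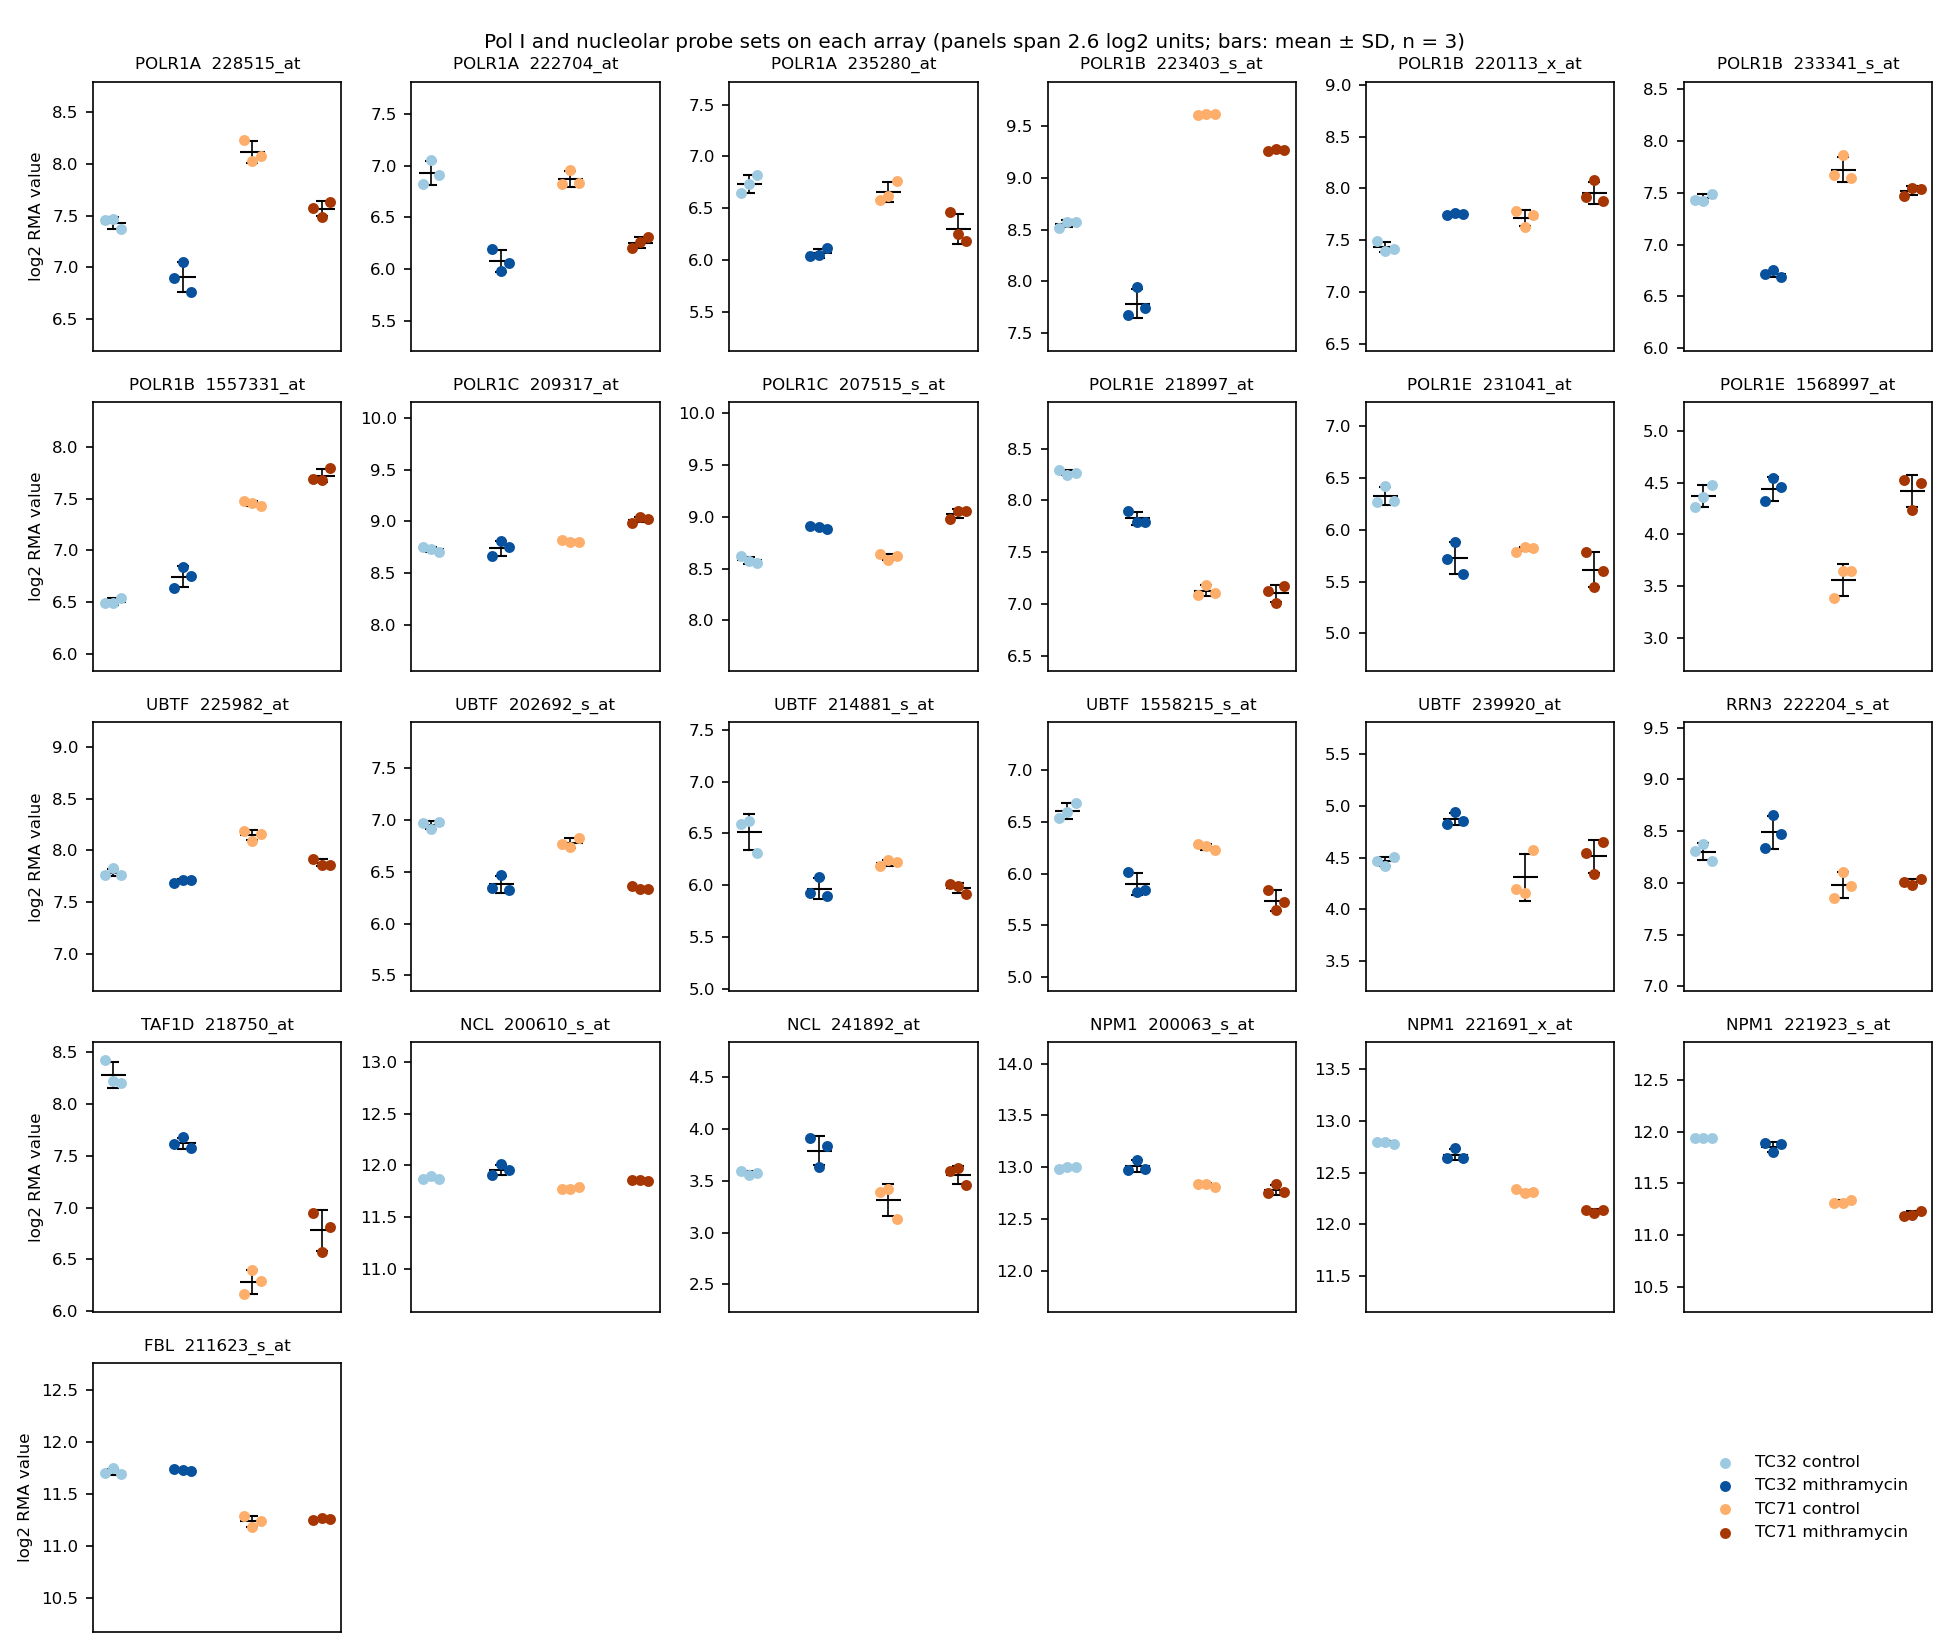
Log2 RMA values (vertical axes, each panel spanning the same number of log2 units) of all 25 probe sets on each array, by group, with points for arrays and bars for the mean and SD (n = 3). POLR1A 222704_at lies near 6.9 in controls of each line and near 6.1 to 6.3 with mithramycin, whereas FBL stays level within a line.

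The probe sets of POLR1B, the other large subunit of the active centre, disagreed. Its brightest set, 223403_s_at, lay at 8.52, 8.58 and 8.58 in TC32 controls and at 7.67, 7.95 and 7.74 with mithramycin. In TC71 it lay at 9.60, 9.62 and 9.61 in controls and at 9.26, 9.28 and 9.27 with the drug. The groups did not overlap in either line, and the falls were 0.77 ± 0.07 in TC32 (adjusted p = 2.31e-06) and 0.34 ± 0.07 in TC71 (adjusted p = 0.00274). In TC71 this call ended with arrays centred on hybridization controls (-0.26, adjusted p = 0.0813) and with the beta-actin covariate, its 3' minus 5' difference added to the model (-0.33, adjusted p = 0.0509). Set 233341_s_at fell by 0.73 ± 0.07 in TC32 and 0.20 ± 0.07 in TC71 (adjusted p = 0.0425), and the latter call ended in 14 of 20 other settings. Among these were 9 of 12 fits without a single array (-0.14 without TC71 control replicate 2), quantile normalization run again (-0.14), hybridization control centring (-0.12), the replicate block, the beta-actin covariate and TC71 arrays alone in the fit. Sets 220113_x_at and 1557331_at of the same gene rose, by 0.32 ± 0.07 and 0.24 ± 0.07 in TC32 and by 0.24 ± 0.07 and 0.27 ± 0.07 in TC71. In TC32 these rises were not called with arrays centred on hybridization controls (0.17 and 0.08), nor that of 1557331_at with housekeeping centring (adjusted p = 0.0515) or with TC32 arrays alone in the fit (adjusted p = 0.0559). In TC71 the rise of 220113_x_at was not called with centring on housekeeping genes (0.20, adjusted p = 0.0675), with the beta-actin covariate (adjusted p = 0.0523) or with replicate numbers as a block (adjusted p = 0.0593), nor without TC71 mithramycin replicate 2 (0.18) or control replicate 2 (0.20). Set 220113_x_at is of a kind that can bind several transcripts. Which transcripts or exons the 4 sets target was not examined, so the direction for the gene as a whole depends on the set.

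POLR1C, a subunit shared by RNA polymerases I and III, was level or rose. At 207515_s_at TC32 controls lay at 8.62, 8.58 and 8.55 and treated arrays at 8.91, 8.90 and 8.89. TC71 controls lay at 8.64, 8.59 and 8.62 and treated arrays at 8.98, 9.05 and 9.06. The treated arrays were higher without overlap in each line, by 0.32 ± 0.06 in TC32 (adjusted p = 6.68e-04) and 0.42 ± 0.06 in TC71 (adjusted p = 9.38e-05). The TC32 rise was 0.16 (adjusted p = 0.275) with arrays centred on hybridization controls. The other set, 209317_at, was at 0.01 ± 0.06 in TC32 (adjusted p = 0.909) and 0.21 ± 0.06 in TC71 (adjusted p = 0.0179), the latter a call lost with the beta-actin covariate (adjusted p = 0.0827), with housekeeping centring and in 3 of 12 fits without a single array.

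POLR1E, which forms a dimer with POLR1G on the polymerase, fell in TC32 at 2 of its 3 sets. At its brightest set, 218997_at, TC32 controls stood at 8.30, 8.25 and 8.26 and treated arrays at 7.90, 7.79 and 7.79. TC71 controls stood at 7.09, 7.19 and 7.11 and treated arrays at 7.13, 7.01 and 7.17. The groups were apart in TC32, a fall by 0.44 ± 0.07 (adjusted p = 1.57e-04), and overlapped in TC71, where the difference was -0.02 ± 0.07 (adjusted p = 0.831). Set 231041_at fell by 0.60 ± 0.10 in TC32 and was at -0.20 ± 0.10 in TC71 (adjusted p = 0.147), where it was called only without mithramycin replicate 1 (-0.29) among the settings tried. The dim set 1568997_at lay between 3.38 and 3.65 in TC71 controls, below the array medians, and between 4.24 and 4.52 with the drug. Its TC71 rise of 0.86 ± 0.10 is therefore rough in size, and in TC32 it was at 0.07 ± 0.10.

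RefSeq promoter windows (GRCh38.p14, the 250 bases before a gene's start) were found for 9 of the 10 genes. Shown are those of POLR1A and POLR1B, whose brightest sets fell in each line, and of FBL, chosen after its values were seen as an abundant member with no called change. The windows are POLR1A chr2:86105887-86106136 on the minus strand, the upstream of 2 windows of POLR1B, chr2:112541786-112542035 on the plus strand, and FBL chr19:39846380-39846629 on the minus strand. Capitals mark GGGCGG, the GC box bound by Sp factors, or its reverse complement CCGCCC.
POLR1A: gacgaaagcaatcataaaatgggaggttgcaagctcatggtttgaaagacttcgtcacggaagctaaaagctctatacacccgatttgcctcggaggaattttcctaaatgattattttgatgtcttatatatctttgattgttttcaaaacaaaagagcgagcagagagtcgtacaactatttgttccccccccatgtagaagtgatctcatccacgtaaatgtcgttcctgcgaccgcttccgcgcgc
POLR1B: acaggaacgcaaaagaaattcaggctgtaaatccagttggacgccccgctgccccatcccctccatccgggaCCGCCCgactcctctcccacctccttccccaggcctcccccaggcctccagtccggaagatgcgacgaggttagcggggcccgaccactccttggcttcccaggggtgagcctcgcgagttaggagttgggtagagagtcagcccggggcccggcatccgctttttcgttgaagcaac
FBL: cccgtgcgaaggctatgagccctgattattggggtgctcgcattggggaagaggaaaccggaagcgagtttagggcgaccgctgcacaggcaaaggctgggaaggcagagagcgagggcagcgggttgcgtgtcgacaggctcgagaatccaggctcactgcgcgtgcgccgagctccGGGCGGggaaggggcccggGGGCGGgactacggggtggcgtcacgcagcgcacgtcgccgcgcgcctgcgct
The POLR1A window held 0 GC boxes and 43.2% G and C, the POLR1B window 1 and 63.6%, and the FBL window 2 and 68.8%. At least 1 GC box stood in 8 of the 13 member windows and in 42.6% of all 35116 windows of this length, and the median G and C content of all was 58.0%. The 2 UBTF windows held 3 and 7 matches, counting overlapping ones, and the 2 windows of RRN3 and of NPM1 held 0. The E-box CACGTG, a palindrome bound by MYC, stood in 0 member windows and in 6.3% of all. These are descriptions of the letters in the windows.

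Among the initiation factors, UBTF fell. At 1558215_s_at TC32 controls lay at 6.53, 6.60 and 6.69 and treated arrays at 6.02, 5.83 and 5.84. TC71 controls lay at 6.28, 6.27 and 6.23 and treated arrays at 5.85, 5.65 and 5.73. No treated array reached a control array of its line, and UBTF fell by 0.71 ± 0.08 in TC32 (adjusted p = 8.34e-06) and by 0.52 ± 0.08 in TC71 (adjusted p = 1.72e-04). At 202692_s_at it fell by 0.57 ± 0.06 and 0.44 ± 0.06, with arrays of 6.91 to 6.98 in TC32 controls against 6.32 to 6.47, and of 6.74 to 6.83 in TC71 controls against 6.33 to 6.36. Set 214881_s_at fell by 0.54 ± 0.09 in TC32 and was at -0.24 ± 0.09 in TC71 (adjusted p = 0.0516), where 8 of 20 other settings called it lower. The brightest set, 225982_at, showed less: it was at -0.08 ± 0.06 in TC32 (adjusted p = 0.286) and fell by 0.27 ± 0.06 in TC71 (adjusted p = 0.00368). That TC71 call ended with hybridization control centring (-0.18, adjusted p = 0.186) and with the beta-actin covariate (-0.23, adjusted p = 0.0831). The dim set 239920_at, between 4.16 and 4.94 on all arrays, went the other way, with 0.41 ± 0.11 in TC32 (adjusted p = 0.00978, and 0.25 and not called with hybridization control centring) and 0.20 ± 0.11 in TC71 (adjusted p = 0.191, and 0.33 and called without TC71 control replicate 3).

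TAF1D moved in opposite directions in the lines. At its only set with a single symbol, 218750_at, TC32 controls stood at 8.43, 8.22 and 8.20 and treated arrays at 7.61, 7.68 and 7.58. TC71 controls stood at 6.17, 6.40 and 6.29 and treated arrays at 6.95, 6.57 and 6.82. All treated arrays were below the controls in TC32 and all were above them in TC71. TAF1D fell by 0.66 ± 0.10 in TC32 (adjusted p = 1.96e-04) and rose by 0.49 ± 0.10 in TC71 (adjusted p = 0.0023). With the beta-actin covariate the TC71 value was 0.37 (adjusted p = 0.0923). Its introns also hold small nucleolar RNAs, and 2 further sets carry its symbol together with theirs. Those were at -0.50 ± 0.06 and -0.73 ± 0.06 in TC32, each called lower, and at -0.08 ± 0.06 and -0.09 ± 0.06 in TC71 (adjusted p = 0.372 and 0.291). The rise in TC71 was thus seen at 1 of the 3 sets that carry the TAF1D symbol.

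RRN3 did not pass the test in either line. Its set 222204_s_at lay at 8.31, 8.38 and 8.21 in TC32 controls and at 8.34, 8.65 and 8.47 with the drug, which overlap (0.19 ± 0.09, adjusted p = 0.118). The TC71 arrays also overlapped, at 7.85, 8.10 and 7.97 against 8.01, 7.98 and 8.04 (0.04 ± 0.09, adjusted p = 0.811). The TC32 difference was called with quantile normalization run again (0.25, adjusted p = 0.0242), with a variance trend (adjusted p = 0.0498) and without TC32 mithramycin replicate 1 (0.26, adjusted p = 0.0418). RRN3 has near-identical pseudogenes, so reads of the set as this gene alone are uncertain.

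The messenger RNAs of the abundant nucleolar proteins stayed near their control levels at their bright sets. These sets lay at percentiles 99 to 99.8 of all sets by mean signal. Whether signals that high follow a change in full was not tested. NCL, which binds nascent ribosomal RNA, lay at 11.87, 11.90 and 11.87 in TC32 controls and at 11.90, 12.01 and 11.95 with mithramycin at set 200610_s_at. In TC71 it lay at 11.77, 11.77 and 11.79 in controls and at 11.86, 11.86 and 11.85 with the drug. Each treated array was above the controls of its line, in TC32 by less than the printed digits show, but the differences of 0.08 ± 0.06 in TC32 and 0.08 ± 0.06 in TC71 were not called (adjusted p = 0.319 and 0.335). With a variance trend in the model they were called (adjusted p = 0.0345 and 0.0331). FBL, the methyltransferase of box C/D ribonucleoproteins, was at 0.02 ± 0.06 in each line (adjusted p = 0.860 in TC32 and 0.822 in TC71), with arrays of 11.69 to 11.75 in TC32 and 11.19 to 11.29 in TC71.

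NPM1, a histone and ribosome assembly chaperone, was at 0.01 ± 0.06 in TC32 and -0.05 ± 0.06 in TC71 at its brightest set, 200063_s_at. Of its other sets, 221691_x_at was at -0.12 ± 0.06 in TC32 and fell by 0.19 ± 0.06 in TC71 (adjusted p = 0.0242). That call ended in 6 of 12 fits without a single array, with hybridization control centring (-0.10, adjusted p = 0.459), with the beta-actin covariate and with the replicate block. Set 221923_s_at was at -0.08 ± 0.06 and -0.11 ± 0.06, not called in either line. With a variance trend it was called in each line (adjusted p = 0.0282 and 0.00374), as was 221691_x_at in TC32 (adjusted p = 0.000983). With only sets of a mean of at least 6, 221923_s_at was called lower in TC71 (adjusted p = 0.0211) and 221691_x_at in TC32 (adjusted p = 0.0179). NPM1 has many processed pseudogenes, and 221691_x_at is of a kind that can bind several transcripts. The second set of NCL, 241892_at, lay between 3.14 and 3.91, below the array medians, and was at 0.22 ± 0.09 and 0.24 ± 0.09, not called in either line (adjusted p = 0.0840 and 0.0699). It was called in TC32 without mithramycin replicate 2 (0.30, adjusted p = 0.0241), and in TC71 with hybridization control centring (0.33), with the replicate block and without TC32 mithramycin replicate 2.

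**Figure D2:**
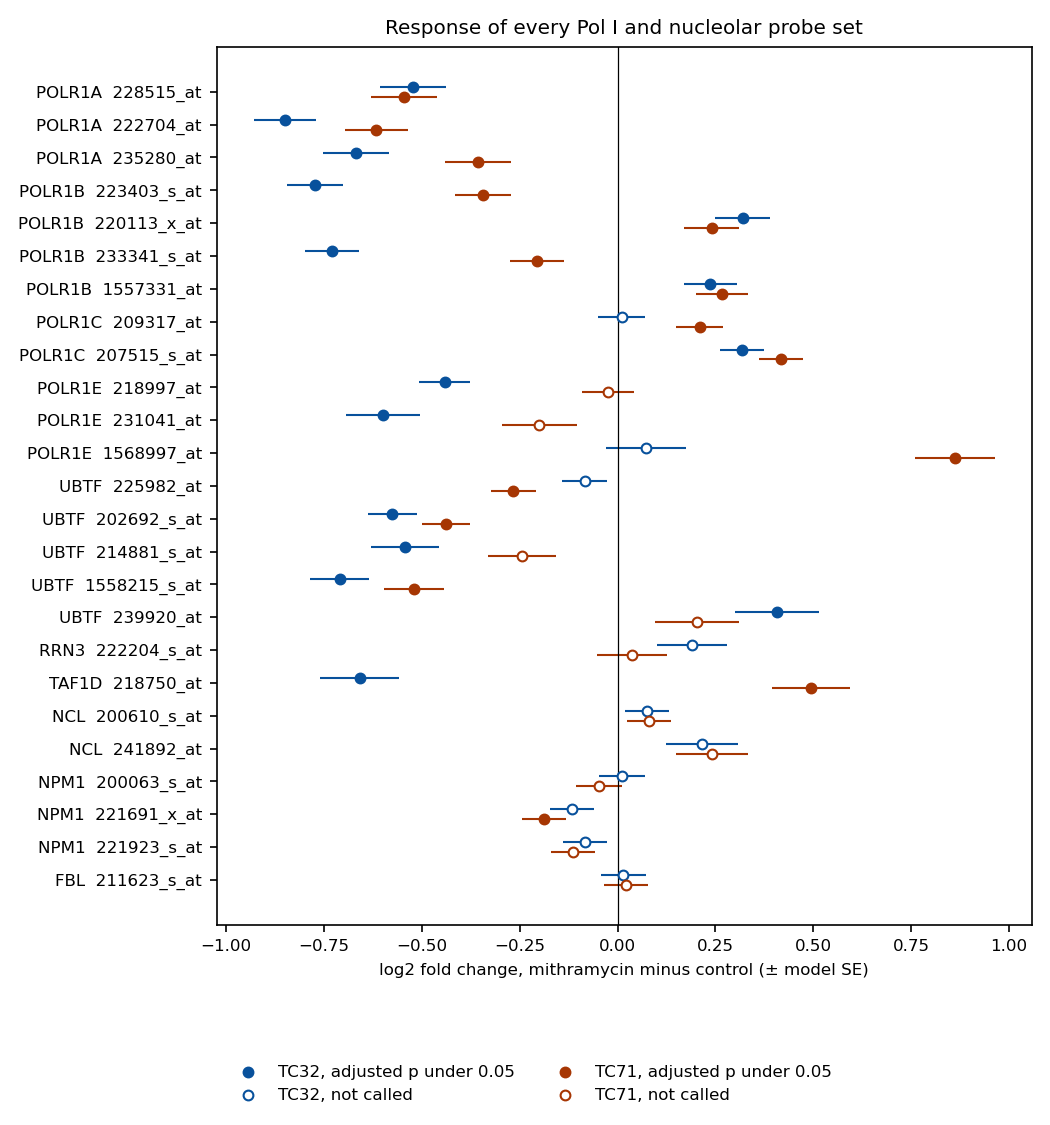
Log2 fold change, mithramycin minus control, with the model's standard error for each of the 25 probe sets in TC32 and TC71. Filled points passed an adjusted p under 0.05, and the sets of POLR1A all lie left of 0 while those of POLR1B and UBTF lie on each side of it.

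Counted over all 25 probe sets, 11 were called lower and 4 higher in TC32, where 16.9% of all probe sets were lower and 19.4% higher. In TC71 9 were lower and 6 higher, against 13.7% and 14.5% of all. Those shares, like the shares of all sets given for other contrasts, are over sets at every signal level. Of the 15250 sets with a mean of at least 6, as 21 member sets have, 5331 were lower and 5312 higher in TC32 when fitted alone. In TC71 these counts were 4558 and 4925, and in each line these are larger shares than over all sets. Beside them, the excess of the 25 member sets called lower is smaller in each line than beside all sets. The share of member sets called higher is below them in each line. The median change of the members was -0.08 in TC32 and -0.05 in TC71, beside 0.06 and 0.05 for all probe sets. In TC32 the calls in each direction came from the polymerase and its initiation factors. Of 12 subunit sets 7 were lower and 3 higher, and of 7 initiation factor sets 4 were lower and 1 higher. In TC32 0 of 6 nucleolar protein sets passed in either direction by limma, with 1 at an unadjusted p under 0.05. Under other settings 3 were called with a variance trend, 1 without TC32 mithramycin replicate 2, and NPM1 221691_x_at also with a mean of at least 6. In TC71 5 subunit sets were lower and 5 higher, 3 initiation factor sets were lower and 1 higher, and 1 nucleolar protein set was lower. Averaged over the lines, 12 member sets were lower and 7 higher, against 19.0% and 26.4% of all. Of the 15250 sets with a mean of at least 6, 5533 were lower and 6016 higher in that average, again larger shares. In each of both lines 7 member sets were lower (28%, against 10.5% of all sets) and 3 were higher (12%, against 9.3%). The 7 were sets of POLR1A, POLR1B and UBTF only, and the 3 were sets of POLR1B and POLR1C. Sets of the same gene are thus counted more than once, and POLR1B stands on each side.

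The balance of calls moved with the scaling. With arrays centred on hybridization controls the median of all sets went from 0.06 to -0.09 in TC32 and from 0.05 to 0.14 in TC71. The members then counted 11 lower and 0 higher in TC32, and 4 lower and 7 higher in TC71. With arrays centred on housekeeping genes the members counted 10 lower and 4 higher in TC71. The beta-actin covariate left 5 lower and 3 higher in TC71. With 1 set per gene, 4 of the 10 genes were lower and 0 higher in TC32 (19.4% and 25.6% of all genes), and 3 were lower and 2 higher in TC71 (16.1% and 19.4% of all genes).

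The ribosomal RNA control sets moved in a way that depended on their position. The 18S 3' set lay at 11.94, 11.83 and 11.76 in TC32 controls and at 13.04, 13.03 and 13.06 with mithramycin. In TC71 it lay at 11.52, 11.36 and 11.61 in controls and at 12.82, 12.85 and 12.83 with the drug. The treated arrays stood far above the controls in each line, by 1.19 ± 0.07 in TC32 and 1.34 ± 0.07 in TC71, or 2.29-fold and 2.53-fold. The 18S 5' set, which the choice did not use, was at -0.03 ± 0.08 in TC32 (adjusted p = 0.826) and -0.04 ± 0.08 in TC71 (adjusted p = 0.795). The 18S middle set was at 0.13 ± 0.09 and 0.05 ± 0.09, with arrays that overlapped in each line. The difference of the 18S 3' and 5' sets therefore went from -0.09 ± 0.07 to 1.13 ± 0.10 in TC32 and from -0.60 ± 0.11 to 0.78 ± 0.05 in TC71 (SD, n = 3). The beta-actin difference moved the other way, by -0.34 over both lines, and that of GAPDH changed by 0.005. Their part in the result was not tested.

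**Figure D3:**
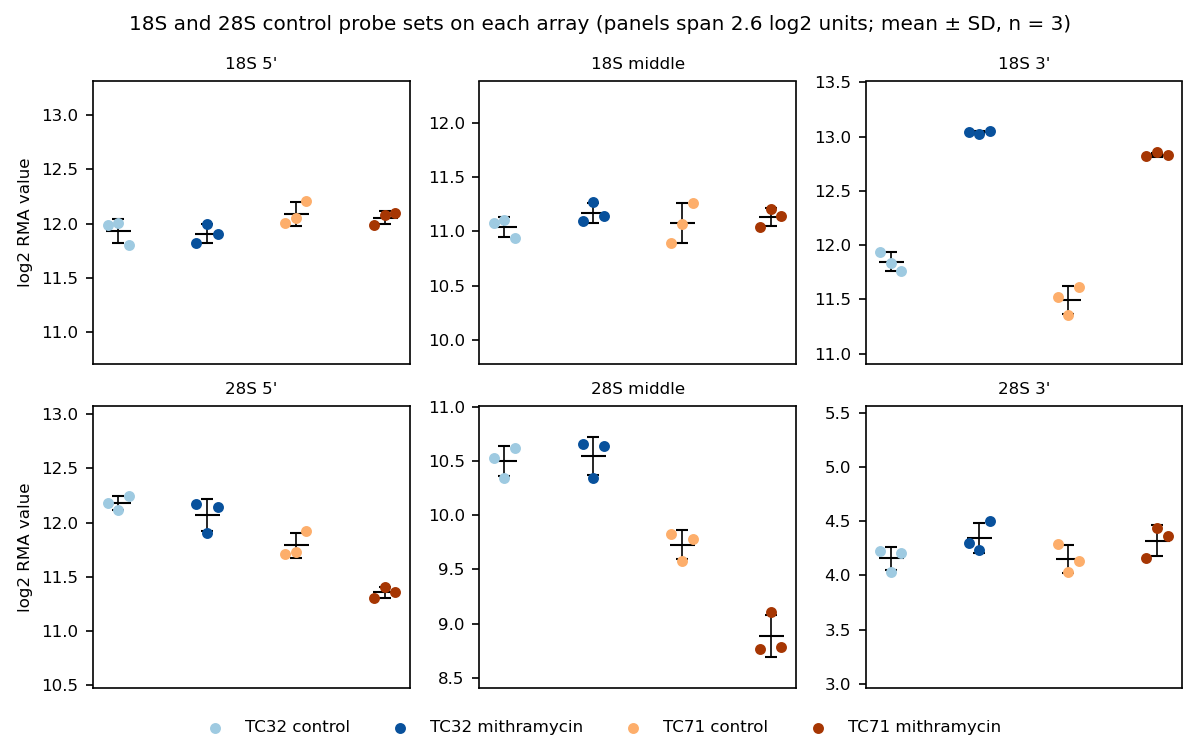
Log2 RMA values of the 5', middle and 3' control sets of 18S and 28S ribosomal RNA on each array, with the mean and SD of each group (n = 3) and panels of equal span. The 18S 3' set is higher on all treated arrays, and the 28S middle set is 0.84 lower with mithramycin in TC71 and at 0.05 in TC32.

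For 28S the lower values lay in TC71. The 28S middle set was at 9.83, 9.58 and 9.78 in TC71 controls and at 8.77, 9.11 and 8.78 with mithramycin, 0.84 ± 0.12 below the controls and apart from them. In TC32 it was at 10.53, 10.34 and 10.62 in controls and at 10.65, 10.35 and 10.63 with the drug, which overlap (0.05 ± 0.12). The effect in TC71 minus that in TC32 was -0.89 ± 0.17. The 28S 5' set fell by 0.43 ± 0.09 in TC71 (adjusted p = 0.00176) and was at -0.10 ± 0.09 in TC32 (adjusted p = 0.371), but the difference of these effects was not called (-0.33 ± 0.12, adjusted p = 0.144). With the variance trend (adjusted p = 0.0111), with a mean of at least 6 (adjusted p = 0.0462) and without TC32 mithramycin replicate 2 (adjusted p = 0.0367) it was called. Over both lines the 28S 5' change was -0.27 (exact permutation p = 0.02, and 0.06 adjusted over the 6 ribosomal RNA sets). That adjustment also used the 3' and middle sets, which were chosen with movement among them already known, so the adjusted value depends on them. The 28S 3' set lay between 4.03 and 4.50, near or below the array medians, and no change is read from it. In untreated cells the 28S 5' set was lower in TC71 than in TC32 by -0.39 ± 0.09 (adjusted p = 0.00205), a call lost with housekeeping centring (-0.13, adjusted p = 0.185) and with the beta-actin covariate (-0.30, adjusted p = 0.135). The 18S 5' set was at 0.16 ± 0.08 in that contrast (adjusted p = 0.146) and was called with housekeeping centring (0.41, adjusted p = 0.000743) and a variance trend. How the priming of the labelling reaction, the structure of the RNA or its processing bears on these sets was not tested.

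The difference of the drug effects between the lines was called at 5 of the 25 member sets, all with the higher value in TC71. Of all sets, 4.38% were called in that direction and 2.48% in the other. Of the 15250 sets with a mean of at least 6, fitted alone, 2080 were called in that direction and 1198 in the other. These are larger shares than over all sets. TAF1D differed by 1.15 ± 0.14 (adjusted p = 3.14e-04). POLR1E 1568997_at and 218997_at differed by 0.79 ± 0.14 and 0.42 ± 0.09 (adjusted p = 0.00455 and 0.0160), the latter a call lost with the replicate block (adjusted p = 0.0557) and with the beta-actin covariate (0.38, adjusted p = 0.0831). POLR1B 233341_s_at and 223403_s_at differed by 0.52 ± 0.10 and 0.43 ± 0.10 (adjusted p = 0.00544 and 0.0219), the latter lost in 5 of 12 fits without a single array and with the beta-actin covariate (adjusted p = 0.0702). For POLR1A and UBTF limma called 0 of 8 sets, with 3 at an unadjusted p under 0.05 and differences from -0.20 ± 0.15 to 0.31 ± 0.12. Under other settings POLR1A 235280_at and UBTF 214881_s_at (0.55 and 0.54 with hybridization control centring) and UBTF 225982_at (-0.18, adjusted p = 0.0438, with a mean of at least 6) were called, the UBTF set 214881_s_at also without TC32 control replicate 3 (0.40). With hybridization control centring 8 member sets were called, and the median of all sets then moved from -0.01 to 0.22.

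The untreated lines themselves differed at most members. In TC71 controls 13 of the 25 sets were lower and 6 higher than in TC32 controls, where 21.9% of all sets were lower and 20.7% higher. Of the 15250 sets with a mean of at least 6, fitted alone, 5789 were lower and 6332 higher, which are larger shares. TAF1D was lower by -2.00 ± 0.10 at 218750_at (adjusted p = 2.07e-09), or 0.251 of the TC32 signal. The 2 other sets that carry its symbol were not examined in this contrast. POLR1E 218997_at was lower by -1.14 ± 0.07, and 231041_at by -0.51 ± 0.10, while 1568997_at was below the array medians in TC71 controls, so no size is given for it. FBL was lower by -0.48 ± 0.06 (adjusted p = 9.75e-06) and NPM1 by -0.47 ± 0.06 and -0.62 ± 0.06 at 221691_x_at and 221923_s_at. NPM1 200063_s_at was at -0.17 ± 0.06 (adjusted p = 0.0336), a call that 10 of 20 other settings ended, 6 of them fits without a single array, and 1 turned. RRN3 was lower by -0.32 ± 0.09 (adjusted p = 0.00952), which was lost with hybridization control centring (-0.26, adjusted p = 0.117) and with the beta-actin covariate (-0.19, adjusted p = 0.377). All 4 sets of POLR1B were higher in TC71, by 0.28 ± 0.07 to 1.06 ± 0.07. POLR1A was higher at 228515_at alone (0.68 ± 0.08), while its other sets were at -0.06 ± 0.08 and -0.08 ± 0.08. With arrays centred on housekeeping genes, which moved the median of all sets from -0.04 to 0.22, 7 members were lower and 10 higher, RRN3 was at -0.07 (adjusted p = 0.522), and NPM1 200063_s_at, NCL 200610_s_at, UBTF 202692_s_at and POLR1A 222704_at turned to positive values. With hybridization control centring 8 were lower and 6 higher.

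The other genes of the pathway were counted on 1 probe set per gene, the brightest. Of the 9 other polymerase I subunits, in TC32 7 rose and 1 fell, and in TC71 6 rose and 1 fell. Of all genes, 25.6% rose and 19.4% fell in TC32, and 19.4% rose and 16.1% fell in TC71, and these shares stand beside all counts of the lists. They are over genes at every signal level, and the lists were not matched to them by level. The medians of the 9 subunits were 0.23 and 0.16, beside 0.08 and 0.07 for all genes. POLR1D, which pairs with POLR1C, fell by 0.94 ± 0.05 and 0.67 ± 0.05, though another of its 3 sets averaged 0.71 over the lines. POLR1F rose by 0.67 ± 0.06 and 0.33 ± 0.06, and the shared small subunits POLR2K and POLR2F rose by 0.51 ± 0.07 and 0.29 ± 0.07 and by 0.38 ± 0.06 and 0.25 ± 0.06, with the other POLR2F set at 0.06.

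Of 12 genes of SL1 and ribosomal DNA chromatin, in TC32 4 rose and 3 fell, and in TC71 3 rose and 2 fell, 33.3% and 25% and then 25% and 16.7% of the list, near the shares of all genes. TAF1B, an SL1 subunit that resembles a general initiation factor of polymerase II, fell by 0.87 ± 0.08 and 0.57 ± 0.08, and KDM2A, a histone demethylase, by 0.42 ± 0.07 and 0.45 ± 0.07 with another of its 3 sets at -0.03. RRP8, a subunit of a silencing complex of ribosomal DNA, rose by 0.50 ± 0.06 and 0.52 ± 0.06 with its weakest set at 0.01 when the lines were averaged, and TBP, the TATA-binding protein, rose by 0.26 ± 0.06 and 0.32 ± 0.06. Of 11 measured box C/D and H/ACA ribonucleoprotein genes, in TC32 5 rose and 1 fell, and in TC71 2 changed each way, or 45.5% and 9.09% and then 18.2% each way. NOLC1, a nucleolar chaperone of these particles, rose by 0.25 ± 0.05 and 0.27 ± 0.05, and NHP2 rose by 0.17 ± 0.05 and 0.15 ± 0.05.

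In TC32 14 of 34 small subunit processome genes fell and 5 rose (41.2% and 14.7%, against 19.4% and 25.6% of all genes), and 16 of 29 measured large subunit genes fell and 4 rose (55.2% and 13.8%). Their medians were -0.09 and -0.15. In TC71 12 and 10 (35.3% and 29.4%, against 16.1% and 19.4% of all genes) and 10 and 8 (34.5% and 27.6%) fell and rose, with medians of -0.02 and -0.04. The RNA helicase DDX10 fell by 1.01 ± 0.06 and 0.98 ± 0.06, RCL1 by 1.20 ± 0.09 and 0.69 ± 0.09 and the RNA acetyltransferase NAT10 by 0.91 ± 0.06 and 0.84 ± 0.06. DDX10 and RCL1 each had another set that averaged near or above 0 (0.04 and 0.15). DDX52 rose by 1.04 ± 0.07 and 0.63 ± 0.07 at its brightest set, with another of its 4 sets at -0.69. UTP3 rose by 0.44 ± 0.05 and 0.47 ± 0.05 and WDR46 by 0.40 ± 0.05 and 0.42 ± 0.05.

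Among the large subunit factors, MDN1, a giant ATPase that strips assembly factors from the particle, fell by 0.82 ± 0.06 and 0.73 ± 0.06 (another of its 3 sets was at 0.01). GTPBP4 fell by 0.50 ± 0.07 and 0.55 ± 0.07 and NOC3L by 0.63 ± 0.06 and 0.35 ± 0.06. NOC2L, LAS1L and NSA2 rose, by 0.33, 0.31 and 0.19 in TC32 and 0.24, 0.23 and 0.17 in TC71, but other sets of NOC2L and LAS1L averaged 0.0017 and 0.02 over the lines. Of 18 other nucleolar proteins, in TC32 3 rose and 7 fell, and in TC71 4 rose and 8 fell, with medians of -0.13 in each line. URB2 fell by 0.84 ± 0.08 and 0.37 ± 0.08, URB1 by 0.52 ± 0.08 and 0.46 ± 0.08 (another of its 3 sets was at 0.11), and MYBBP1A by 0.31 ± 0.07 and 0.32 ± 0.07, while NPM3 rose by 0.58 ± 0.08 and 0.42 ± 0.08. Over all 6 lists 42 of 112 measured genes were lower and 27 higher in TC32 (37.5% and 24.1%, against 19.4% and 25.6% of all genes), so that the share that rose was near that of all genes. In TC71 35 were lower and 32 higher (31.2% and 28.6%, against 16.1% and 19.4%). Averaged over the lines, 46 were lower and 36 higher (41.1% and 32.1%, against 20.9% and 32.9% of all genes), so that the share higher was near that of all genes. The effect differed between the lines for 2 genes with the lower value in TC71 and 7 with the higher. These are 1.79% and 6.25%, against 3.72% and 6.27% of all genes, so the share with the higher value was near that of all genes. The untreated lines differed at 43 lower and 37 higher in TC71 (38.4% and 33%, against 24.8% and 26.7% of all genes). The balance moved with the scaling, to 6 higher in TC32 with hybridization control centring, to 19 lower in TC71 with the same centring, and to 20 higher in TC71 with housekeeping centring or 16 with the beta-actin covariate. In TC71 21 were higher without mithramycin replicate 1 and 20 without control replicate 2.

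**Figure D4:**
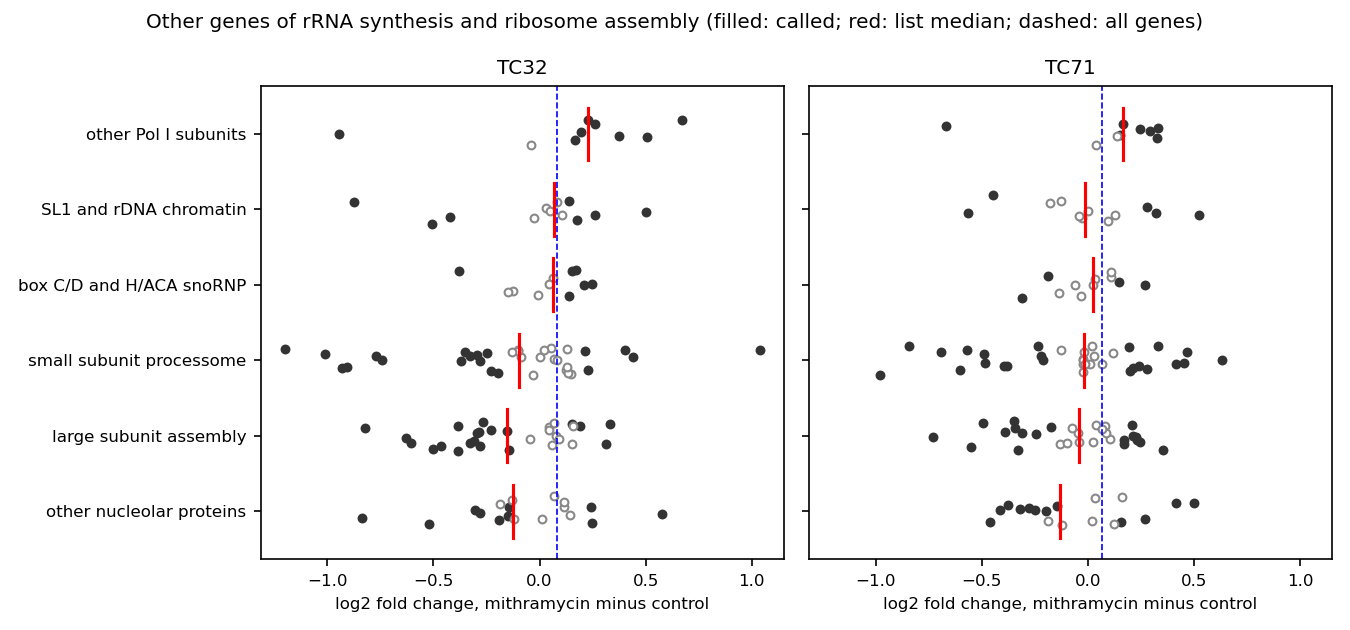
Log2 fold change, mithramycin minus control, of the genes in 6 lists around ribosomal RNA synthesis in TC32 and TC71, 1 point per gene. Filled points were called, red bars are list medians and the dashed line is the median of all genes (0.08 and 0.07), above which the other polymerase I subunits have their median.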

How the data were processed

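Biotin-labelled RNA of 12 cultures was measured on 1 Affymetrix array each, and the deposited table holds log2 values made by the authors with RMA, per the submitters' processing notes (version and settings not given in the sources used here). Probe sets were named through the platform annotation, and only those with 1 symbol were used. A group-means model was fitted with limma 3.58.1 in R 4.3.3 to all 12 arrays and 54619 probe sets (array controls other than ribosomal RNA left out), with contrasts for the drug in each line, their mean and difference, and the untreated lines. P-values were adjusted by Benjamini-Hochberg over all probe sets, or over 19775 genes at their brightest set for the pathway lists. The 28S 5' set and the beta-actin and GAPDH differences of 3' and 5' sets were also tested by exact two-sided permutation within lines (400 arrangements, smallest p 0.005; within a line, 0.1). On simulated data the fit recovered 44% of sets changed by 0.5 and 96% of those changed by 1 in TC32, and 44% and 94% in TC71. Only 50 of 54619 sets were changed there at each size, far fewer than were called in these data. Recovery in these data therefore cannot be read from the simulation, and a set that was not called may still have changed.

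The members and lists were chosen with earlier results of these data known. All members and ribosomal RNA sets are described whatever their values. Of each list, the up to 3 genes with the largest fall and up to 3 with the largest rise in the mean of both lines are named, among genes called the same way in each line. Of 119 listed genes 112 had a probe set of their own symbol, and NOLC1 stands on 2 lists. Alternatives were a variance trend, a replicate block, leaving out each array, the compared groups alone, quantile normalization run again, centring on 18 hybridization control sets or 12 housekeeping genes, a mean of at least 6, 1 set per gene, no _x_at or _s_at sets, and the beta-actin 3' minus 5' difference as a covariate.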

Additional observations from a re-analysis of the deposited data

Results flagged for a closer look

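At 5 member probe sets the drug effect differed between the lines by limma's test of the difference itself, given here as the TC71 effect minus the TC32 effect. TAF1D 218750_at differed by 1.15 (adjusted p = 3.14e-04), falling in TC32 and rising in TC71 on 3 of 3 treated arrays each. The other 2 sets that carry the TAF1D symbol, together with small nucleolar RNA symbols, fell in TC32 and were not called in TC71. POLR1E 1568997_at differed by 0.79 (adjusted p = 0.00455), with TC71 controls below the array medians, which leaves the size rough, and POLR1E 218997_at by 0.42 (adjusted p = 0.0160). POLR1B 233341_s_at differed by 0.52 (adjusted p = 0.00544) and POLR1B 223403_s_at by 0.43 (adjusted p = 0.0219), each with the larger fall in TC32. The 28S middle set is set beside them without a test, because it was chosen as a set known to move. Its TC71 effect minus its TC32 effect was -0.89, with 3 of 3 treated TC71 arrays below the controls. The groups of 3 arrays are too small for a test of single outlying arrays.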

How the results depend on the processing

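Over all single probe sets and contrasts, 2951 values under other settings kept their side of the threshold, of which 94 uncalled ones changed sign, 53 gained a call, 114 lost one and 4 called in at least 1 of the settings reversed. Those are the untreated line differences centred on housekeeping genes, at 0.20 for POLR1A 222704_at, 0.0811 for UBTF 202692_s_at, 0.15 for NCL 200610_s_at and 0.0878 for NPM1 200063_s_at. The cause was not tested. POLR1A 222704_at and 228515_at and UBTF 202692_s_at and 1558215_s_at were called lower in each line under every setting that could be run.

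Hybridization control centring gave 0 members higher in TC32, 4 lower in TC71, 8 higher for the difference of effects and 8 lower in the untreated contrast. Its pathway counts were 6 higher in TC32, 19 lower in TC71, 18 higher in the mean of both lines, and 0 lower and 15 higher for the difference. Housekeeping centring gave 7 members lower and 10 higher in the untreated contrast. Its pathway counts were 20 higher in TC71, 23 higher in the mean, and 23 lower and 62 higher in the untreated contrast. With 1 set per gene the members lower and higher were 4 and 0 in TC32, 3 and 2 in TC71, 4 and 1 in the mean and 5 and 3 in the untreated contrast, with 3 higher for the difference. Without _x_at and _s_at sets they were 6 and 2 in TC32, 6 and 4 in the mean and 5 and 3 in the untreated contrast, with 4 lower in TC71 and 3 higher for the difference, and the pathway genes lower were 30 in the mean and 27 in the untreated contrast. These 2 settings test fewer sets. The beta-actin covariate gave 5 members lower and 3 higher in TC71, 3 higher for the difference and 7 lower in the untreated contrast, and pathway counts of 16 higher in TC71 and 0 lower and 2 higher for the difference. For the difference, pathway genes were 12 higher with a variance trend, 3 higher with quantile normalization and 4 lower and 12 higher with a mean of at least 6, which left 1 member lower.

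Same-numbered arrays did not deviate together (correlations from 0.03 to 0.21 in TC32 and from -0.09 to -0.02 in TC71), so the numbers are not taken as pairing. With the replicate block, members were 11 lower and 4 higher in TC32, 8 and 6 in TC71, 12 and 6 in the mean, and 0 and 4 for the difference, where pathway genes were 1 lower and 4 higher. The untreated contrast could not be fitted with the block. Over both lines 28S middle was at -0.45 with quantile normalization and -0.43 with hybridization centring, and 28S 3' at 0.14 with the latter and 0.13 with housekeeping centring. Leaving out 1 array at a time moved pathway genes higher in TC71 from 20 to 32, those lower for the difference from 0 to 2 and higher from 2 to 10, the 28S 3' effect from 0.14 to 0.22, 18S middle from 0.0446 to 0.137 and the beta-actin difference from -0.44 to -0.21.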

Other observations

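Probe sets that carry the RRN3 symbol together with those of its pseudogenes RRN3P1 and RRN3P2 did not move together. Set 216902_s_at was at -0.25 ± 0.09 in TC32 (limma adjusted p = 0.0487) and -0.09 ± 0.09 in TC71 (adjusted p = 0.518). Set 230328_at rose by 0.37 ± 0.07 in TC32 (adjusted p = 0.00102) and by 0.51 ± 0.07 in TC71 (adjusted p = 9.83e-05), n = 3 arrays per group. These sets cannot be given to RRN3 alone and were left out of all counts.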
